A study of Mus musculus with 3 samples.

Results

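The miR-199 and miR-214 microRNAs (miRNAs) were followed in small RNA libraries of mouse hearts during postnatal growth. They were taken as the rows of the count table that carry 5 accessions of miRBase, the registry of miRNA sequences. These are MIMAT0000229 (miR-199a-5p), MIMAT0000230 (miR-199a-3p), MIMAT0000672 (miR-199b-5p), MIMAT0004667 (miR-199b-3p) and MIMAT0000661 (miR-214-3p). Of the 1900 mature accessions in the table, these 5 were examined, and of its 2049 rows they have 7, because miR-199a-5p and miR-199a-3p have 2 rows each. Levels are given in CPM, the reads per 1000000 counts of a library. All 7 rows averaged at least 10 CPM over the libraries, the filter that 317 rows passed in all.

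The hearts came from wild type C57BL/6 mice on postnatal day 1 (P1), day 7 (P7) and day 28 (P28), and no transgene, deletion or treatment is given for these mice. The study describes the tissue as cardiac ventricles. Each age was represented by 1 library, and how many hearts went into a library is not given in the sources used here. The depth of the libraries was 1944237 counts for P1, 2465680 for P7 and 2842526 for P28. No spread between hearts could therefore be estimated, no test between ages was made, and all intervals are 95% intervals that cover counting error only. The table pairs no other accession with a name, so the miRNAs that mark cardiomyocytes, vessels, blood and fibroblasts were not analysed here, and the heart label was not checked against them. The libraries were of whole tissue, where fewer cells of a type and less RNA per cell cannot be told apart.

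A miRNA is cut from a hairpin precursor, and either arm of the hairpin (5p or 3p) can be loaded into the silencing complex. Bases 2 to 8 of the mature miRNA, the seed, pair with target messenger RNAs and lower their output. The miR-199a-2 and miR-214 hairpins are cut from Dnm3os, a noncoding transcript that runs antisense to the dynamin gene Dnm3 and is made in mesenchymal cells. In the heart, miR-199a-5p is known to repress Hif1a, a transcription factor of the response to low oxygen. The 3p arm, miR-199a-3p, is known to drive cardiomyocytes back into the cell cycle when it is supplied to them, and miR-214 to repress Slc8a1, the sodium-calcium exchanger.

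The mature sequences are shown because the seed sets which targets a miRNA can pair with, and because identical sequences limit what the counts can tell apart. Of the 5 members, 4 were matched by name in the RefSeq miRNA table of GRCm38.p6 (mm10, the build named in the submitters' processing notes). Capitals mark the seed, and the sequences are written 5′ to 3′.
miR-199a-5p: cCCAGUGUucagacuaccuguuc
miR-199a-3p: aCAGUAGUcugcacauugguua
miR-199b-3p: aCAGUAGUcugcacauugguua
miR-214-3p: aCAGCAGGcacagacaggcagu

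The 4 matched members fall into 3 seed groups, and miR-199b-5p was not compared. How far its reads can be told apart from those of miR-199a-5p was therefore not checked. The 3p arms of miR-199a and miR-199b were identical at 22 of 22 bases, and among the 1679 mature names of the table no other miRNA had their seed. The seed of miR-214-3p was also that of miR-761. Aligned from their 5′ ends without gaps, miR-199a-3p and miR-214-3p had the same base at 8 of 22 positions, and at 5 of the 7 seed positions. The arms miR-199a-5p and miR-199a-3p had the same base at 3 of the 7 seed positions.

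The hairpins are shown because their genomic copies decide which row of the table a read can belong to. Capitals mark the mature arms that the RefSeq table lists, with the 5p arm first. The Mir214 hairpin also carries miR-214-5p, which is not among the accessions examined.
Mir199a-2: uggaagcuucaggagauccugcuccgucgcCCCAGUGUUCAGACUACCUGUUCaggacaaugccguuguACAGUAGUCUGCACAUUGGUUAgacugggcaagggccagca
Mir199a-1: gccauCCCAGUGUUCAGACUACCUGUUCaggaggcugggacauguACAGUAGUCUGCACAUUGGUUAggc
Mir214: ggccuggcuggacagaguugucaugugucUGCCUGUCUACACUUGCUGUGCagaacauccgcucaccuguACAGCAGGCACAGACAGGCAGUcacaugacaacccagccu

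In GRCm38, Mir199a-2 lies at chr1:162217814-162217923 and Mir214 at chr1:162223368-162223477, both on the plus strand and separated by 5444 bases. Both lie inside Dnm3os (chr1:162217623-162225550, plus strand), overlapping exons of 5 and 3 of its 6 annotated GENCODE M21 transcripts, and in an antisense position inside an intronic part of Dnm3. The Mir199a-1 hairpin lies at chr9:21496495-21496564 on the minus strand, inside the dynamin gene Dnm2, which is on the plus strand. The Mir199b hairpin lies at chr2:32318460-32318569 on the plus strand, inside Dnm1, which is on the minus strand. Neither overlapped an annotated exon of its host gene. Each copy of miR-199 thus lies antisense to a dynamin gene.

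The shared 3p sequence was compared with up to 6 bases on either side at its 3 loci. Capitals mark the mature miRNA, and the windows are shown because every base that differs between the loci is in lower case.
Mir199a-2: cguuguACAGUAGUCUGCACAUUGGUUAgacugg
Mir199a-1: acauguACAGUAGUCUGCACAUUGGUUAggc
Mir199b: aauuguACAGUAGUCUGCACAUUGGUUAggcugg

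The identical run around this miRNA was 26 bases for Mir199a-2 and Mir199a-1, and 27 for Mir199a-2 and Mir199b. It was 28 bases for Mir199a-1 and Mir199b, up to the end of the Mir199a-1 hairpin. For miR-199a-5p, the identical run of its 2 hairpins was 27 bases. A read no longer than the mature miRNA therefore fits every copy equally, and how the authors placed such reads is not stated. Which hairpin the first and the second row of miR-199a stand for is not given in the table.

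The 3p arm of miR-199 was the most abundant product of these loci at every age. The first row of miR-199a-3p held 2938 reads at P1, 4213 in P7 hearts and 3166 in P28 hearts, which is 1511 CPM (95% Wilson interval 1458 to 1567), 1709 CPM (1658 to 1761) and 1114 CPM (1076 to 1153). It was highest in P7 hearts and lowest in P28 hearts, and the 3 intervals did not overlap. It ranked 53rd of the 317 rows by CPM at P1, 53rd in P7 hearts and 59th in P28 hearts.

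The second row of miR-199a-3p followed another course. It held 2113 reads at P1, 2404 in P7 hearts and 2563 in P28 hearts, or 1087 CPM (1041 to 1134), 975 CPM (937 to 1015) and 902 CPM (867 to 937). It was highest at P1, and the intervals of P7 and P28 overlapped at about 937 CPM. The row of miR-199b-3p, which has the same mature sequence, was close to the first row of miR-199a-3p. It held 2994 reads at P1, 4344 in P7 hearts and 3003 in P28 hearts, or 1540 CPM (1486 to 1596), 1762 CPM (1710 to 1815) and 1056 CPM (1019 to 1095). The intervals of these last 2 rows overlapped at each of the 3 ages.

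The reads of the shared 3p sequence were not spread evenly over its 3 rows. The first row of miR-199a-3p held 36.5% at P1 (95% Wilson interval 35.5 to 37.6), 38.4% in P7 hearts (37.5 to 39.4) and 36.3% in P28 hearts (35.3 to 37.3). The second row held 26.3% (25.3 to 27.2), 21.9% (21.2 to 22.7) and 29.4% (28.4 to 30.3). The share of miR-199b-3p was 37.2% (36.2 to 38.3), 39.6% (38.7 to 40.6) and 34.4% (33.4 to 35.4). The second row thus had the smallest share at each age, and its share was lowest at P7. The sum of the 3 rows, in which a read would count several times if the authors counted it at each locus, was 4138 CPM at P1 (4049 to 4229), 4445 CPM in P7 hearts (4363 to 4529) and 3072 CPM in P28 hearts (3008 to 3137).

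**Figure D1:**
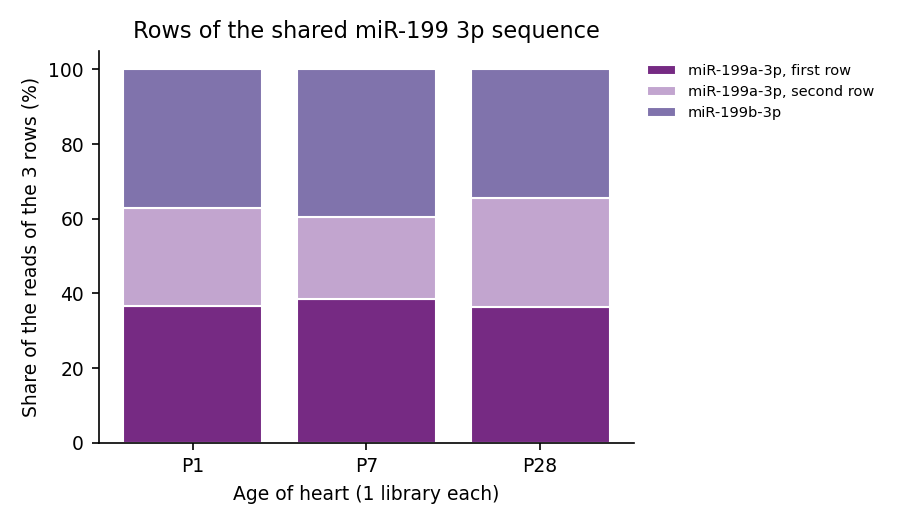
Stacked bars give the share of the reads of the 3 rows with the shared miR-199 3p sequence, in percent, that each row held in the P1, P7 and P28 libraries (1 library per age). The second row of miR-199a-3p (middle band) holds 26.3% at P1, 21.9% in P7 hearts and 29.4% in P28 hearts.

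The 5p arm of miR-199a varied more with age. Its first row held 1017 reads at P1, 2148 in P7 hearts and 619 in P28 hearts, or 523 CPM (492 to 556), 871 CPM (835 to 909) and 218 CPM (201 to 236). Its second row held 352, 528 and 237 reads, or 181 CPM (163 to 201), 214.1 CPM (197 to 233) and 83.4 CPM (73.4 to 94.7). Both rows were highest in P7 hearts and lowest in P28 hearts, and for the second row the intervals of P1 and P7 overlapped.

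Summed over its rows, miR-199a-5p was at 704 CPM at P1 (668 to 742), 1085 CPM in P7 hearts (1045 to 1127) and 301 CPM in P28 hearts (282 to 322). These 3 intervals lay apart. The first row held 74.3% of the miR-199a-5p reads at P1 (71.9 to 76.5), 80.3% in P7 hearts (78.7 to 81.7) and 72.3% in P28 hearts (69.2 to 75.2). The rows of the 3p arm were closer to an even split, with 58.2% of the miR-199a-3p reads in the first row at P1, 63.7% in P7 hearts and 55.3% in P28 hearts. In both arms the share of the first row was highest at P7.

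The least abundant members were miR-199b-5p and miR-214-3p. The 5p arm of miR-199b held 196 reads at P1, 654 in P7 hearts and 235 in P28 hearts, or 101 CPM (87.7 to 116), 265 CPM (246 to 286) and 82.7 CPM (72.8 to 93.9). It stood out at P7, while its intervals at P1 and P28 overlapped. For miR-214-3p the reads were 278, 468 and 221, which is 143 CPM (127 to 161), 190 CPM (173 to 208) and 77.7 CPM (68.2 to 88.7). These were again highest in P7 hearts and lowest in P28 hearts, with no overlap of the 3 intervals.

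The order of the members within a library differed with age at its lower end. At P1, miR-214-3p was above miR-199b-5p, and their intervals did not overlap. At P7 the order was turned, again without overlap, and at P28 the intervals of both overlapped. At all 3 ages, the sum of the shared 3p sequence was above miR-199a-5p, and miR-199a-5p was above both. Mature miRNAs have nearly the same length (22 or 23 bases for the 4 matched members), so CPM values were set side by side without a length correction. Whether different sequences yield reads equally in library preparation was not tested, so this is an order of reads.

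**Figure D2:**
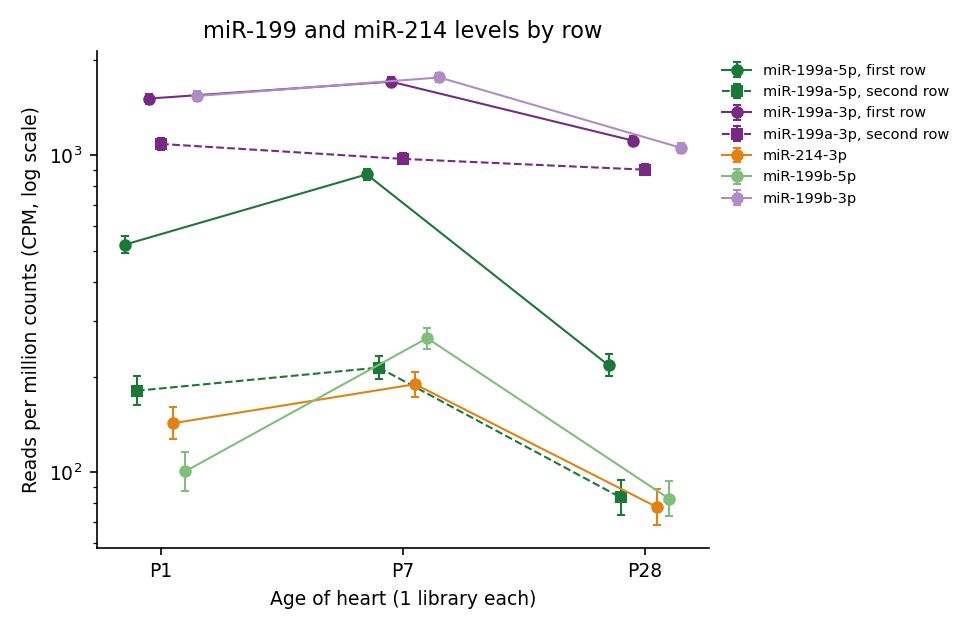
Levels in CPM (log axis) of the 7 rows are plotted against the age of the heart, with 1 library per age and bars for the 95% Wilson interval of counting error. Of the 7 rows, 6 are highest in P7 hearts and lowest in P28 hearts, while the second row of miR-199a-3p (purple squares) is highest at P1.

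By accession, with rows summed, 5 of 5 members were highest in P7 hearts and lowest in P28 hearts in CPM. The intervals of P1 and P7 overlapped for miR-199a-3p, as did those of P1 and P28 for miR-199b-5p. By single rows, this course was seen in 6 of the 7 member rows and in 74 of the 317 rows compared, which is 23.3%. It depended on the scaling of the libraries. Under TMM scaling, which sets the typical row near no change, 2 of 5 members (miR-199a-5p and miR-214-3p) and 15.1% of the rows had it. Under DESeq2 size factors it was the same 2 members and 13.9% of the rows. Together the members made up 5086 CPM at P1 (4987 to 5187), 5986 CPM in P7 hearts (5890 to 6083) and 3533 CPM in P28 hearts (3465 to 3603). A read would count several times in this sum if it was counted at each locus.

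The first comparison asked how the members differed between P1 and P7, the week in which cardiomyocytes begin to leave the cell cycle. The 5p arm of miR-199b was 2.63-fold higher at P7 (95% Clopper-Pearson interval 2.24 to 3.10), and miR-199a-5p was 1.54-fold higher (1.44 to 1.65). For miR-214-3p the P7 level was 1.33 times that at P1 (1.14 to 1.55). The 3p arms differed least, with a ratio of 1.14 for miR-199b-3p (1.09 to 1.20) and of 1.03 for miR-199a-3p, whose interval of 0.996 to 1.07 included no difference. That value sums rows with opposite directions, at 1.13 for the first row (1.08 to 1.19) and 0.897 for the second (0.846 to 0.952).

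Of the 5 accessions, 1 (miR-199b-5p) was at least 2-fold higher at P7 and 0 were at least 2-fold lower. Among all 317 rows, 10.4% were at least 2-fold higher and 11.7% were at least 2-fold lower. The log2 ratio of miR-199b-5p was 1.39 (1.16 to 1.63), and 97.2% of the rows had a lower ratio. For miR-199a-5p the log2 ratio was 0.62 (0.53 to 0.72), with 76.7% of the rows below it. The median over the 5 accessions was 0.41, against 0.015 over the 317 rows.

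From P1 to P28, miR-199a-5p differed most among the members. It was 2.34-fold lower at P28 (2.15 to 2.55), with a log2 ratio of -1.23 (-1.35 to -1.10). Its 2 rows gave log2 ratios of -1.26 and -1.12. For miR-214-3p the log2 ratio was -0.88 (-1.14 to -0.62). The ratios of the other members lay nearer to 0, at -0.54 for miR-199b-3p (-0.62 to -0.47), -0.37 for miR-199a-3p (-0.42 to -0.31) and -0.29 for miR-199b-5p (-0.57 to -0.0052).

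Here 1 accession (miR-199a-5p) was at least 2-fold lower at P28 and 0 were at least 2-fold higher. Of all 317 rows, 40.7% were at least 2-fold lower and 12.3% were at least 2-fold higher, so a lower level was common in the P28 library. The median over the 5 accessions was -0.54, close to the median of -0.64 over the 317 rows. Under TMM scaling, 26.2% of the rows were at least 2-fold lower and 24.0% were at least 2-fold higher. The median over all rows was then -0.012.

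The direction at P28 against P1 thus depended on the scaling for 3 members. Over the scalings, which here include the library total of a table with 1 row per mature accession, and a larger pseudocount, the log2 ratio ranged from -0.40 to 0.26 for miR-199a-3p, from -0.33 to 0.34 for miR-199b-5p and from -0.58 to 0.086 for miR-199b-3p. It was below 0 under each of these settings for miR-199a-5p (-1.26 to -0.60) and miR-214-3p (-0.92 to -0.25). Relative to the median row, each member lay on the same side under each of these settings, which a common shift of all ratios leaves unchanged. The ratio of miR-199a-5p was below that median by 0.53 to 0.59 on the log2 scale and that of miR-214-3p by 0.18 to 0.24. The ratio of miR-199a-3p was above the median by 0.27 to 0.33, that of miR-199b-5p by 0.34 to 0.41 and that of miR-199b-3p by 0.093 to 0.16.

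By library totals, each of the 5 members differed most between P7 and P28. The miR-199a-5p level was 3.60-fold lower at P28 than at P7 (3.34 to 3.90), that of miR-199b-5p 3.20-fold lower (2.76 to 3.74) and that of miR-214-3p 2.44-fold lower (2.08 to 2.88). The 3p arms again differed less. By library totals, miR-199b-3p was 1.67-fold lower (1.59 to 1.75) and miR-199a-3p 1.33-fold lower (1.29 to 1.38). Under DESeq2 size factors, however, the log2 ratio of miR-199b-3p was only -0.088, and that of miR-199a-3p turned to 0.24. Over the settings named above, the log2 ratio of miR-199b-3p lay on both sides of the median row, from -0.11 to 0.044 relative to it. Its lower level at P28 was thus near that of the median row.

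Of the 5 accessions, 3 (miR-199a-5p, miR-199b-5p and miR-214-3p) were at least 2-fold lower at P28 than at P7 and 0 were at least 2-fold higher. Among the 317 rows, 39.1% were at least 2-fold lower and 3.15% were at least 2-fold higher. Under TMM scaling these shares were 22.7% and 12.6%, and 2 accessions (miR-199a-5p and miR-199b-5p) were at least 2-fold lower, since the log2 ratio of miR-214-3p was then -0.73. The median log2 ratio was -1.29 over the accessions and -0.64 over all rows. Only 16.7% of the rows had a lower ratio than miR-199a-5p and 18.9% a lower ratio than miR-199b-5p, while 58.7% had a lower ratio than miR-199a-3p. The 3 comparisons share libraries with each other, and a high level in the P7 library alone raises the first and lowers the last.

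**Figure D3:**
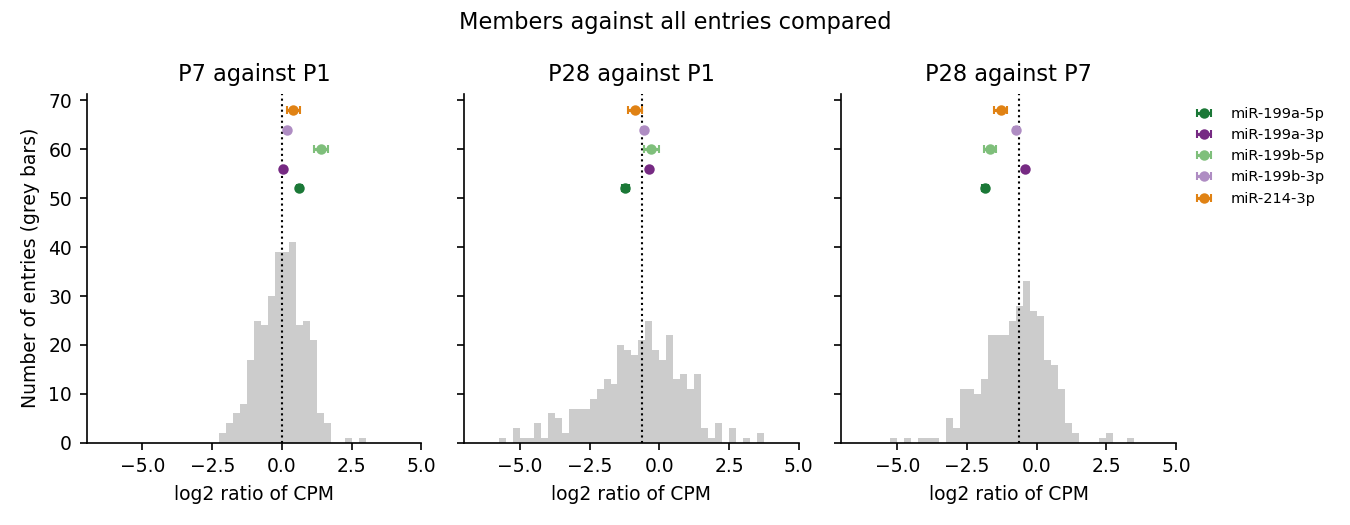
Grey bars count the 317 rows by their log2 ratio of CPM in each comparison, the dotted line is their median, and the coloured points give the 5 accessions with 95% Clopper-Pearson intervals (the height of a point has no meaning). The 5p arms lie to the right of the median at P7 against P1 and farthest to the left at P28 against P7, where the ratio is -1.85 for miR-199a-5p and -1.68 for miR-199b-5p.

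Ratios of reads within a library do not depend on how libraries are scaled, and they separate the arms of miR-199. Summed over the miR-199 rows, there were 5.14 reads of the 3p arm per read of a 5p arm at P1 (95% Clopper-Pearson interval 4.87 to 5.43). At P7 there were 3.29 (3.17 to 3.42), and at P28 there were 8.004 (7.51 to 8.53). The odds of a 3p read were 1.56-fold lower at P7 than at P1 (1.46 to 1.67) and 2.43-fold higher at P28 than at P7 (2.26 to 2.62). Summed over miR-199a and miR-199b, the 5p arms were thus best represented in P7 hearts and least in P28 hearts. If the authors counted a read at each locus, these sums hold repeated reads, and the intervals are too narrow.

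For miR-199a the same order was found in each row. In the first rows there were 2.89 reads of miR-199a-3p per read of miR-199a-5p at P1 (2.69 to 3.11), 1.96 in P7 hearts (1.86 to 2.07) and 5.11 in P28 hearts (4.69 to 5.58). The second rows had more 3p reads per 5p read, with 6.00 at P1 (5.36 to 6.74), 4.55 in P7 hearts (4.14 to 5.01) and 10.8 in P28 hearts (9.46 to 12.4). From P7 to P28 the odds of a 3p read were 2.61-fold higher in the first rows (2.36 to 2.89) and 2.37-fold higher in the second rows (2.01 to 2.81). These intervals overlapped. The first and second rows have the same mature sequence in each arm, and how reads were placed in them is not stated. The likeness of the rows is therefore no independent measure.

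For miR-199b the arms gave another order of P1 and P28. There were 15.3 reads of miR-199b-3p per read of miR-199b-5p at P1 (13.2 to 17.7), 6.64 in P7 hearts (6.12 to 7.22) and 12.8 in P28 hearts (11.2 to 14.7). P7 was again the lowest, whereas P1 and P28 had overlapping intervals, and the odds of a 3p read at P28 were 0.837 times those at P1 (0.684 to 1.02). Since the 3p reads of miR-199a and miR-199b have the same sequence, these ratios rest on how the reads were divided among the rows.

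The ratio of miR-199a-5p to miR-199b-5p reads was highest at P1. The intervals do not cover reads placed in the wrong 1 of these rows, since the sequence of miR-199b-5p was not compared. At P1 there were 6.98 reads of miR-199a-5p per read of miR-199b-5p (6.01 to 8.15). At P7 there were 4.09 (3.76 to 4.46) and at P28 there were 3.64 (3.15 to 4.23). The odds of miR-199a-5p against miR-199b-5p were 1.71-fold lower at P7 than at P1 (1.43 to 2.04). Between P7 and P28 they differed by a factor of 0.890, with an interval of 0.751 to 1.06 that included no difference.

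The Dnm3os transcript carries both Mir199a-2 and Mir214. There were 4.92 reads of miR-199a-5p per read of miR-214-3p at P1 (4.33 to 5.62), 5.72 in P7 hearts (5.18 to 6.32) and 3.87 in P28 hearts (3.34 to 4.51). The interval at P1 overlapped those at P7 and P28. The odds of miR-199a-5p against miR-214-3p at P28 were 1.48-fold lower than at P7 (1.23 to 1.77) and 1.27-fold lower than at P1 (1.04 to 1.55). The shared 3p sequence stood at 28.9 reads per read of miR-214-3p at P1 (25.7 to 32.7), 23.4 in P7 hearts (21.3 to 25.7) and 39.5 in P28 hearts (34.6 to 45.4). The odds of the shared 3p sequence against miR-214-3p at P7 were 0.809 times those at P1 (0.693 to 0.944), and at P28 they were 1.37 times those at P1 (1.14 to 1.64). Relative to miR-214-3p, the value at P28 was thus the lowest for the 5p arm of miR-199a and the highest for the shared 3p sequence. Mir199a-1, on another chromosome, also gives miR-199a-5p, so this ratio is not that of a single precursor transcript.

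**Figure D4:**
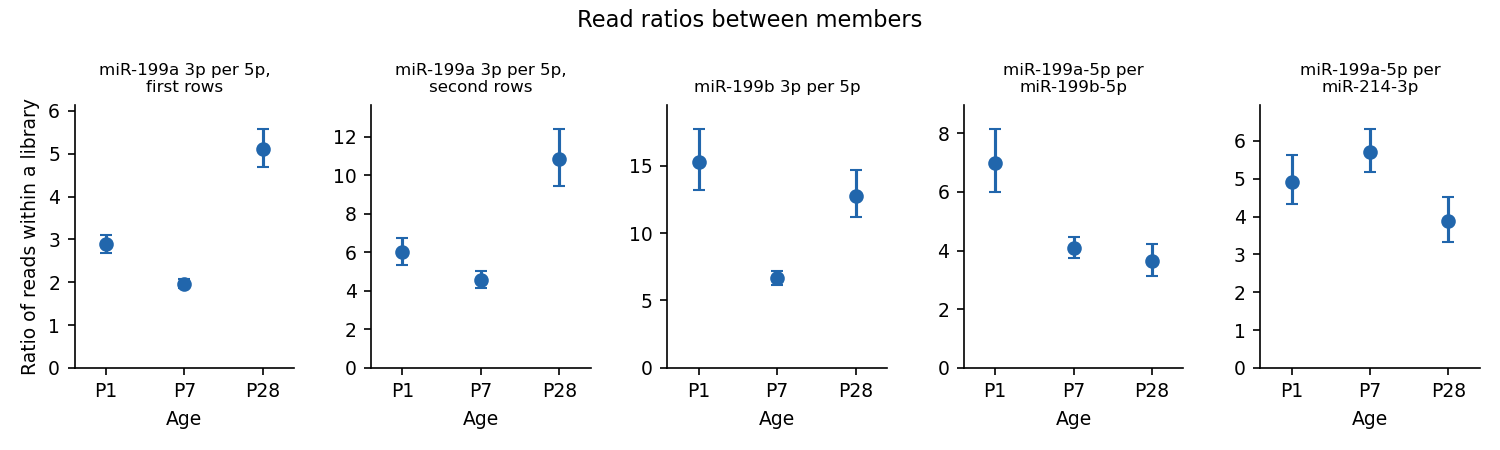
Each panel gives a ratio of reads within the P1, P7 and P28 libraries (1 library per age, axes from 0), with bars for the 95% Clopper-Pearson interval. The 3 panels of 3p reads per 5p read are lowest at P7, at 1.96, 4.55 and 6.64, and miR-199a-5p per miR-199b-5p is highest at P1, at 6.98.

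The courses of the members were also compared with each other and with other miRNAs by their pair of log2 ratios (P7 against P1 and P28 against P7), over 3 libraries. The distance between the pairs was 0.36 for miR-199a-3p and miR-199b-3p, 0.60 for miR-199a-5p and miR-214-3p, and 0.79 for the 5p arms of miR-199a and miR-199b. The arms of miR-199a were 1.55 apart and those of miR-199b were 1.52 apart. By accession, the 2 arms of miR-199a, and those of miR-199b, thus lay farther from each other than the same arm of miR-199a and miR-199b. These are not distances within a single precursor, because miR-199a has 2 hairpins and the 3p reads cannot be assigned to miR-199a or miR-199b by sequence. The 2 members with the same sequence share their reads among rows, so their likeness is no independent measure.

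Among 129 other accessions that averaged at least 100 CPM, the nearest course to that of miR-199a-3p was that of MIMAT0000140, at a distance of 0.059, with 665 CPM at P1, 660 in P7 hearts and 499 in P28 hearts. The median distance of these accessions from miR-199a-3p was 0.97. The nearest to miR-214-3p was MIMAT0003741, at a distance of 0.10 (median 1.35), with 154 CPM at P1, 193 in P7 hearts and 76.0 in P28 hearts. For miR-199a-5p the nearest accession was at 0.35 (median 1.81), farther than in those cases. The table gives no names for these accessions.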

How the data were processed

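Small RNA libraries of mouse heart (NEBNext kit, per the labels) were measured at P1, P7 and P28, with 1 library per age. The deposited values are raw read counts per miRBase accession, made by the authors without normalization. The submitters' processing notes name bcl2fastq, TopHat and mm10, and the study states TopHat2 and Bioconductor packages for its RNA-seq in general. The rule for reads that fit several places, the use of strand and the miRBase release are not given in the sources used here. Columns were matched to libraries by the age code in their names.

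Counts were divided by the library total over all rows (CPM), where 3 reads correspond to 1.54 CPM at P1, 1.22 at P7 and 1.06 at P28. Rows that averaged at least 10 CPM were compared, and log2 ratios used a pseudocount of 0.5 reads. The quasi-likelihood test of edgeR could not be fitted with 1 library per age, so no p-value is given. Levels and shares carry Wilson intervals and ratios carry Clopper-Pearson intervals (95%). A change in a ratio of reads within a library is the conditional odds ratio with its exact interval. No molecular identifiers are stated, so copies of a molecule are counted separately. Ratios, intervals and the 2-fold rule were tested on simulated data.

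The members and lists were chosen with earlier results of these data known. By the rule for names, all 5 accessions are named, with the 3 accessions of the nearest course to each of miR-199a-5p, miR-199a-3p and miR-214-3p. Of these, only the nearest to miR-199a-3p and to miR-214-3p are printed, and for miR-199a-5p only the distance is given. Other accessions carry no names, so the lists of cell type miRNAs (cardiomyocyte, smooth muscle, endothelial, erythroid, leukocyte, fibroblast-associated) were not computed, nor were miR-214-5p and miR-3120. Names of the 5 members were taken from their miRBase accessions, and sequences from the RefSeq table of GRCm38.p6.

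Alternatives were TMM (edgeR 4.0.16), DESeq2 1.42.0 size factors, the total without the 10 most abundant rows, a pseudocount of 5 reads, 1 row per mature accession, 1.5-fold or 4-fold, and no filter or a filter of 1 or 100 CPM. For 1 row per mature accession, rows were summed by accession, and accessions with the same counts in every library were kept once. Counting only the row of the shared 3p sequence with the most reads summed over the libraries, and the course of the members under each scaling, were added after seeing the data. Python 3.11.15 with scipy 1.17.1, pandas 2.3.3, numpy 2.4.6 and matplotlib 3.10.9 was used, and R 4.3.3 for the scalings.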

Additional observations from a re-analysis of the deposited data

How the results depend on the processing

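The median over the 5 accessions at P28 against P1 was -0.54 by library totals, 0.081 under TMM, 0.086 under DESeq2 size factors and -0.057 without the 10 most abundant rows, and 0 accessions were past 2-fold under each of these 3 scalings. At P28 against P7 the median was -0.73 under TMM, -0.64 under DESeq2 size factors and -0.94 without the 10 rows, with 2 accessions past 2-fold in place of 3, since miR-214-3p, which is that median, no longer passed. Highest at P7 and lowest at P28, a course examined after seeing the data, were 5 of 5 accessions by library totals, 2 under TMM, 2 under DESeq2 size factors and 3 without the 10 rows. At P7 against P1 no scaling moved the median beyond its counting interval, but single members did move beyond theirs. These were miR-199a-3p and miR-199b-3p under TMM and without the 10 rows, and miR-199a-5p without the 10 rows. The log2 ratio of miR-199a-3p was 0.047 by library totals, 0.11 under TMM and 0.19 without the 10 rows. These scalings move every ratio of a comparison by about the same amount. At 1.5-fold, 2 accessions passed in the comparison of P7 with P1, 2 in that of P28 with P1 and 4 in that of P28 with P7. At 4-fold, 0 passed in any of the 3 comparisons. The shares of all rows past 1.5-fold and 4-fold were not computed, so these numbers have no background to be read against. The pseudocount of 5 reads left the medians within their counting intervals and the numbers of accessions past 2-fold as they were. The table with 1 row per mature accession did so too, but for the members, whose rows were already summed, it changes only the library total, so it is another scaling and no check of their rows. In it miR-199a-3p and miR-199b-3p stayed separate, as accessions were not merged by sequence. Filters at 1 CPM, at 100 CPM or none do not touch the members, whose 7 rows pass the filter at 10 CPM.

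With only the row of the shared 3p sequence that had the most reads summed over the 3 libraries (miR-199b-3p, which at P28 held 3003 reads against 3166 in the first row of miR-199a-3p), there were 1.91 reads of the 3p arm per 5p read at P1, 1.30 in P7 hearts and 2.75 in P28 hearts, in the same order as with all rows. The 5p reads were still summed over all miR-199 5p rows, so repeated counting on that side was not addressed. No paired analysis was possible because there was 1 library per age, and leaving out a replicate was not possible for the same reason. Depth limits miR-199b-5p and miR-214-3p most, with 196 to 654 reads in a library.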
